A study of Mus musculus with 12 samples.

Results

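The D-type cyclins *Ccnd1*, *Ccnd2* and *Ccnd3*, their kinase partners *Cdk4* and *Cdk6*, and the genes of the INK4 inhibitors, *Cdkn2a*, *Cdkn2b*, *Cdkn2c* and *Cdkn2d*, were taken by symbol from a table of RNA levels in mouse embryonic stem cells (ESCs) sorted in G1 phase. All 9 genes were found among the 24881 symbols of the table, and all 9 passed the filter on low values that left 12572 genes for testing. The cells were R1 ESCs with the FUCCI reporters, whose colour shows the cell cycle phase, either WT or P53 KO (P53-/-, a CRISPR-Cas9 deletion of *Trp53*, the gene of P53). They were grown in serum or in 2i medium, in which inhibitors of MEK and GSK3 block ERK signalling and activate WNT signalling. There were 2 libraries for each genotype in each medium, 4 groups in all, and every group carried the reporters and was sorted in G1. The study used P53-/- clones 1 and 2 for RNA-seq, each grown from a single cell, and the table does not tie a library to a clone, so the effect of a clone and of a library cannot be told apart. Numbers of libraries follow the order of the columns, and they tie no library of one group to a library of another. Nothing in the labels says that the libraries of a group came from separate cultures, and p values then measure only the spread between them.

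D-type cyclins are the regulatory subunits that switch on CDK4 and CDK6 in G1 phase, and the active kinases phosphorylate the retinoblastoma protein RB1 and its relatives, which frees E2F transcription factors for entry into S phase. Their transcription follows growth factor signals, with cyclin D1 a classical target of the ERK pathway. INK4 proteins bind CDK4 and CDK6 and keep them from cyclin D. They are encoded by *Cdkn2a* (p16INK4A), *Cdkn2b* (p15INK4B), *Cdkn2c* (p18INK4C) and *Cdkn2d* (p19INK4D). *Cdkn2a* has a further promoter for ARF, an unrelated protein that stabilises P53 by binding MDM2. ESCs are known for a short G1 phase and for little restraint by RB1, and the *Cdkn2a*-*Cdkn2b* locus is a classical target of Polycomb repression.

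Promoter windows of RefSeq on GRCm38.p6, each with 250 bases before and 50 bases after a transcription start, matched 7 of the 9 genes, with 10 windows in all. *Ccnd1* and *Ccnd2* had no entry. The authors' values were made on another build, mm9, so the sequences stand beside the values as context only. Stretches are shown for the genes on which the results turn: *Cdk4*, the member with the highest level, *Cdkn2b*, the inhibitor called in the most comparisons, and *Cdkn2a*, whose 2 starts share a symbol. Each stretch runs 5′ to 3′ along the gene and ends before the nearest annotated exon base. Capitals mark an E-box (CACGTG, bound by MYC and its relatives), a cyclic AMP response element (TGACGTCA) or a GC box (GGGCGG), on either strand.
Cdk4, GRCm38.p6 chr10:127063285-127063533, plus strand: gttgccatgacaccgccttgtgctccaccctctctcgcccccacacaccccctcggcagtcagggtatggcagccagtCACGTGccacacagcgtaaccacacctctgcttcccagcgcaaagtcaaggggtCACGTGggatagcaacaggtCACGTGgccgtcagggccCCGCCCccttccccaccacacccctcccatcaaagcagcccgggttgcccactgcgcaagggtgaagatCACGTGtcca
Cdkn2b, GRCm38.p6 chr4:89311040-89311282, minus strand: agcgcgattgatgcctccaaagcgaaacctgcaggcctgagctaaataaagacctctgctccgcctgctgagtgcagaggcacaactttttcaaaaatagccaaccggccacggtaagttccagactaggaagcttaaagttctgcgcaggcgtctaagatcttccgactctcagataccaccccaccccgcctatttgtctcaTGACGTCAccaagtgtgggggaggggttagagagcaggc
Cdkn2a, ARF start, GRCm38.p6 chr4:89294654-89294869, minus strand: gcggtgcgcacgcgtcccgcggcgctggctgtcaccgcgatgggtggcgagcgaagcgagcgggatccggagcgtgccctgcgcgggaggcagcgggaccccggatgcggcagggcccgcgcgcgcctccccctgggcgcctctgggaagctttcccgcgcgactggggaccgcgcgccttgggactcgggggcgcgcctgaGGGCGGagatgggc
Cdkn2a, p16INK4A start, GRCm38.p6 chr4:89282193-89282442, minus strand: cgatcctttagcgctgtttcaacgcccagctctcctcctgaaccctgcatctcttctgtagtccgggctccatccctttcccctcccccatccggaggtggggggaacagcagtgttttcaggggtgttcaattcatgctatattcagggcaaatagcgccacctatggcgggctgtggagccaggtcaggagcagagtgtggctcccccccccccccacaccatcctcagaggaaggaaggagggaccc

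The *Cdk4* stretch held 4 E-boxes, and an E-box was found in 3 of the 10 windows of the members (*Cdk4*, *Cdk6* and 1 of 2 starts of *Cdkn2c*) against 7.15% of all 32851 windows. The cyclic AMP response element was in the *Cdkn2b* window alone among the members, beginning 46 bases before the start, against 1.79% of all windows. GC boxes were in 8 of the 10 windows, against 35.7% of all. Strings of E2F sites (TTTCCCGC, TTTGGCGC or TTTCGCGC) were in 1 window, the ARF start of *Cdkn2a*, against 1.84% of all, those of TCF/LEF sites (CTTTGAA or CTTTGAT) in the *Cdk4* window against 8.65%, and that of ETS sites (CCGGAAG) in 1 *Ccnd3* window against 8.86%. A P53 response element, 2 decamers up to 13 bases apart, was in none of the 10 windows and in 0.0731% of all. Both strands were searched, and no matches of different motifs overlapped in the members' windows. These are matches of letters and not bound sites.

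Each library was prepared from total RNA after removal of ribosomal RNA, and the deposited values are FPKM, fragments scaled by transcript length and by the mapped fragments of the library, which allows levels to be set side by side between genes. FPKM holds no counts. The steps between low values put the depth at about 5220000 to 13110000 fragments, up to a factor common to all libraries. *Trp53* was lower in P53-/- libraries, at 7.25 and 1.88 in 2i and 16.8 and 3.68 in serum, against WT values of 26.8 and 33.7 in 2i and 77.6 and 75.1 in WT serum, and it was called in 2i (log2 fold change −2.98, limma, BH-adjusted p = 0.0547) but not in serum (−3.26, limma, BH-adjusted p = 0.15). *Cdkn1a*, the P53 target that encodes P21, was lower in P53-/- in both cultures (log2 fold changes −2.24 and −2.18, limma, BH-adjusted p = 0.00218 and 0.00601). Summed FPKM of 10 pluripotency markers ran from 3644 to 4639, with *Dppa5a* the highest. Of these 10, 1 was called lower in P53-/- 2i than in WT 2i, *Klf4* (log2 fold change −0.96, limma, BH-adjusted p = 0.00782). None was higher, and their median was −0.30, beside 5.97% of all genes lower and 4.36% higher. That of 8 feeder fibroblast markers was 1.75 to 2.73 in 2i and 8.31 to 11.7 in serum, there mostly *Thy1*, with the fibroblast collagen *Col3a1* and *Postn* at 0 in all 8 libraries. That of 6 primitive streak and mesoderm markers was 8.34 to 13.5 in 2i, mostly *Gsc*, and 2.29 to 3.51 in serum. That of 7 primitive endoderm markers was 2.58 to 4.36 in WT 2i, 1.63 to 2.32 in P53-/- 2i, 2.76 to 2.93 in WT serum and 1.28 to 1.45 in P53-/- serum. Trophoblast markers summed to between 1.51 and 4.05 and neural progenitor markers to between 1.33 and 2.97. The trophoblast marker *Krt7* was at 2.39 and 1.94 in P53-/- 2i against 0.165 and 0.883 in WT 2i, and was called (log2 fold change 2.14, limma, BH-adjusted p = 0.0972). The part of these cell types in the results below was not tested.

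*Cdk4* was the highest of the 9 genes in each group, followed by *Ccnd3* and *Ccnd1*, and *Cdkn2a* came next in mean level. In WT serum the mean FPKM was 235 for *Cdk4*, 76.1 for *Ccnd3*, 45.0 for *Ccnd1*, 17.7 for *Cdkn2a*, 8.94 for *Ccnd2*, 5.25 for *Cdk6*, 1.62 for *Cdkn2b*, 1.30 for *Cdkn2c* and 0.409 for *Cdkn2d*. The libraries of neighbours in this order did not overlap, apart from *Cdkn2b* and *Cdkn2c*. In P53-/- serum, *Cdkn2a* and *Ccnd2* overlapped, as did *Cdkn2c* with *Cdkn2b* and *Cdkn2b* with *Cdkn2d*. In WT 2i the order below *Cdkn2a* changed to *Cdkn2b*, *Cdkn2c*, *Cdk6*, *Cdkn2d* and *Ccnd2*, and no neighbours overlapped. In P53-/- 2i it was *Cdkn2c*, *Cdkn2b*, *Cdk6*, *Cdkn2d* and *Ccnd2*, and only *Ccnd1* and *Cdkn2a* overlapped. *Ccnd2* thus stood after *Cdkn2a* in both serum groups and last in both 2i groups. Among all genes tested, *Cdk4* in WT serum lay above 96.5% and *Cdkn2d* above 5.28%.

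**Figure D1:**
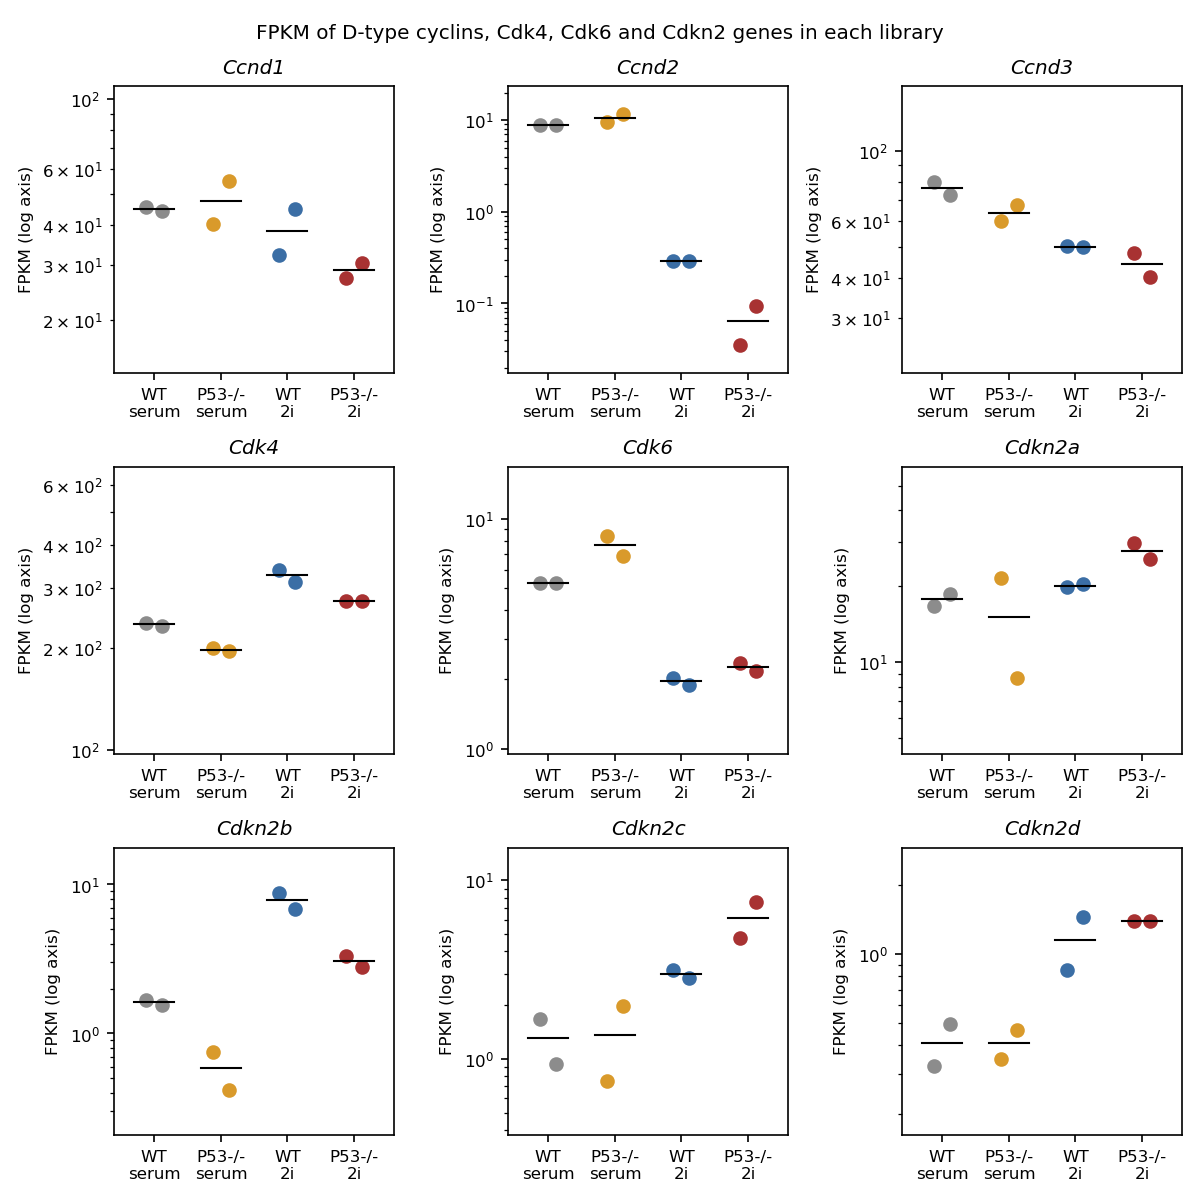
FPKM of each of the 9 genes in each library, on log axes that differ between panels, by group. Each dot is 1 library and the line is the mean of 2. *Ccnd2* lies between 8.92 and 11.8 in serum and between 0.0348 and 0.294 in 2i, and *Cdkn2b* is lower in P53-/- than in WT libraries in each culture.

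Comparing 2i with serum asks how the entry points of RB control differ between ground state and serum ESCs. In WT ESCs, 3 of the 9 genes were higher in 2i (*Cdkn2b*, *Cdkn2c* and *Cdkn2d*), 3 were lower (*Ccnd2*, *Ccnd3* and *Cdk6*) and 3 were not called, where a call needed a p from limma, adjusted by the Benjamini-Hochberg method (BH), under 0.1 together with a fold over 1.5. Of all 12572 genes tested, 27.2% were higher and 28.6% lower, so that the share of members in each direction was near that of genes at large. In P53-/- ESCs, 4 genes were higher (the 4 *Cdkn2* genes) and 3 were lower (*Ccnd1*, *Ccnd2* and *Cdk6*), beside 28.0% and 30.1% of all genes. The median log2 fold change of the members was 0.18 in WT and 0.48 in P53-/-, beside −0.02 and −0.03 over all genes. These comparisons share no libraries, and 5 genes were called in the same direction in both, *Ccnd2*, *Cdk6*, *Cdkn2b*, *Cdkn2c* and *Cdkn2d*, beside 46.2% of all genes. *Ccnd2* was under 0.5 FPKM in every 2i library and *Cdkn2d* in every serum library, so these 2 genes passed the filter on the mean only through the culture in which they are high, and their culture calls lend the counts no support. In bulk RNA, fewer cells that express a gene and less RNA per cell cannot be told apart.

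*Ccnd2*, which encodes cyclin D2, had the widest range. Its FPKM was 8.97 and 8.92 in the WT serum libraries and 9.52 and 11.8 in P53-/- serum. In 2i medium it was 0.294 and 0.290 in WT, and 0.0348 and 0.0929 without P53. All 4 serum libraries stood far above all 4 libraries in 2i. The log2 fold change of FPKM + 0.1 between 2i and serum was −4.53 in WT (95% interval −5.17 to −3.88, limma, BH-adjusted p = 2.85e-05), a 23.1-fold lower level on that scale, and −6.05 in P53-/- (−6.70 to −5.41, limma, BH-adjusted p = 1.17e-05). By the estimated depth, about 14.8 and 9.6 fragments lay behind the WT 2i values and about 2.1 and 3.2 behind those of P53-/- 2i, while the serum values rested on 394 to 744 fragments. The steps between the gene's own lowest values gave 14.0 and 9.0 fragments for WT, and 2.0 and 3.0 for P53-/-. With so few fragments the fold change follows the pseudocount and is no bound, and in P53-/- it was −3.45 with a pseudocount of 1 and −7.29 with 0.01. *9330179D12Rik*, a gene on the opposite strand that overlaps *Ccnd2*, was at 0 in 7 of 8 libraries.

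*Ccnd3* (cyclin D3) was the most abundant D-type cyclin and was lower in 2i by a smaller factor. Its FPKM was 79.7 and 72.5 in WT serum and 50.3 and 49.8 in WT 2i, without overlap, and the log2 fold change was −0.60 (SE 0.13, limma, BH-adjusted p = 0.00519). The fold of 1.52 lay just past the threshold, and the call was lost when libraries were scaled by median ratios or by quantiles, or when WT serum library 1 was left out. In P53-/- ESCs it was 60.1 and 67.7 in serum and 47.9 and 40.2 in 2i. Here the fold of 1.45 was under the threshold (log2 fold change −0.54, limma, BH-adjusted p = 0.0083), although the libraries did not overlap, and it was passed when P53-/- 2i library 1 or P53-/- serum library 1 was left out. The pseudogene *Ccnd3-ps* could share reads with *Ccnd3*, and how the counting placed such reads is not given in the sources used here. *Bysl*, which overlaps *Ccnd3* by 361 bases on the opposite strand, had an FPKM of 14.25 to 16.78 in serum and 9.82 to 12.76 in 2i.

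*Ccnd1* (cyclin D1) was called in P53-/- ESCs only, which is not a test of a difference between the genotypes. Its FPKM was 40.2 and 55.1 in P53-/- serum and 27.2 and 30.4 in P53-/- 2i, a log2 fold change of −0.71 (limma, BH-adjusted p = 0.0159). In WT it was 45.5 and 44.4 in serum and 32.1 and 44.8 in 2i, and the groups overlapped (log2 fold change −0.25, 95% interval −0.71 to 0.22, limma, BH-adjusted p = 0.317). The difference between the genotypes was −0.46 on the log2 scale, with a BH-adjusted limma p of 0.528. *LTO1*, which overlaps *Ccnd1* by 1771 bases on the opposite strand, had an FPKM of 4.68 to 5.88 in serum and 4.26 to 4.54 in 2i. The call in P53-/- ESCs was lost with quantile normalization and without P53-/- serum library 2, where the log2 fold change was −0.48.

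Together the D-type cyclins had a summed FPKM of 130 ± 6 (SD, n = 2) in WT serum, 122 ± 18 in P53-/- serum, 88.8 ± 8.7 in WT 2i and 72.9 ± 3.2 in P53-/- 2i. The serum libraries, from 110 to 135, all lay above the 2i libraries, from 70.7 to 94.9. *Ccnd3* made up 58.5% ± 1.3 of the sum in WT serum, 52.5% ± 3.1 in P53-/- serum, 56.7% ± 5.9 in WT 2i and 60.3% ± 4.9 in P53-/- 2i (SD, n = 2). *Ccnd2* made up 6.88% ± 0.28 in WT serum and 8.73% ± 0.09 in P53-/- serum, but 0.331% ± 0.036 in WT 2i and 0.0889% ± 0.0602 in P53-/- 2i. The rest was *Ccnd1*, between 33.9% and 47.2% in single libraries.

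**Figure D2:**
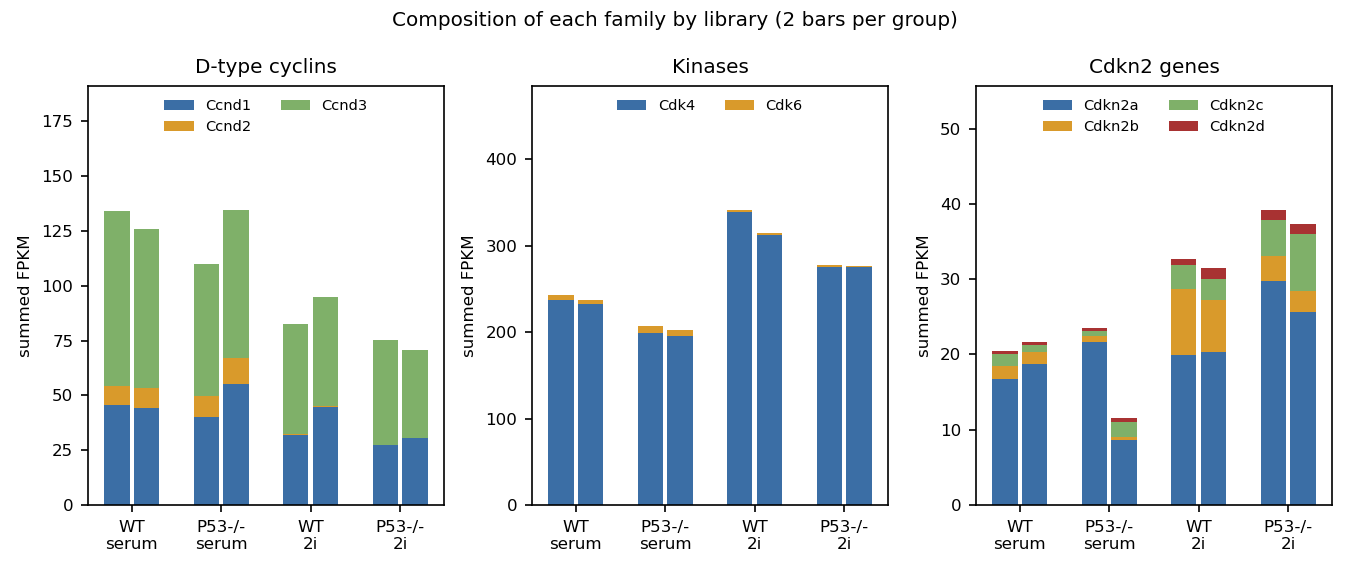
Summed FPKM of the D-type cyclins, of *Cdk4* and *Cdk6*, and of the *Cdkn2* genes, with 1 bar per library and 2 bars per group, stacked by gene on axes that start at 0. The *Ccnd2* segment is visible in serum and not in 2i, *Cdk4* fills over 95.9% of each kinase bar, and P53-/- serum library 2 has the lowest *Cdkn2* sum, 11.5.

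Of the kinases, *Cdk6* was lower in 2i in both genotypes and *Cdk4* was not called. *Cdk6* had an FPKM of 5.26 and 5.24 in WT serum against 2.02 and 1.89 in 2i, a log2 fold change of −1.38 (SE 0.18, limma, BH-adjusted p = 0.000425). In P53-/- it was 8.41 and 6.92 in serum and 2.36 and 2.18 in 2i, a log2 fold change of −1.71 (limma, BH-adjusted p = 0.000141). The serum libraries lay above the 2i libraries in both genotypes, and these calls held under each alternative tried. *Cdk4* had an FPKM of 237 and 232 in WT serum and 339 and 313 in WT 2i, and of 199 and 195 in P53-/- serum and 275 and 275 in P53-/- 2i. The 2i libraries were all higher than the serum libraries, by a log2 fold change of 0.47 in WT (95% interval 0.20 to 0.74, limma, BH-adjusted p = 0.00887) and 0.48 in P53-/- (0.21 to 0.75, limma, BH-adjusted p = 0.00787). These folds, 1.39 and 1.40, stayed under the threshold of 1.5, so *Cdk4* was not called. Quantile normalization took the WT difference to 0.66 and past the threshold. The ratio of *Cdk4* to *Cdk6* FPKM was 44.7 ± 0.5 (SD, n = 2) in WT serum, 25.9 ± 3.2 in P53-/- serum, 166 ± 2 in WT 2i and 122 ± 7 in P53-/- 2i. *Tspan31*, which overlaps *Cdk4* on the opposite strand, had an FPKM of 30.6 to 35.9 in serum and 45.3 to 56.4 in 2i. The libraries were made with a stranded kit, and whether counting used strand is not given in the sources used here.

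Of the inhibitors, *Cdkn2b* was called between the cultures in each genotype. Its FPKM was 1.69 and 1.55 in WT serum against 8.79 and 6.85 in 2i, a log2 fold change of 2.20 (SE 0.29, limma, BH-adjusted p = 0.000472). In P53-/- it was 0.752 and 0.416 in serum and 3.31 and 2.79 in 2i, a log2 fold change of 2.24 (limma, BH-adjusted p = 0.000377). No library in serum reached a 2i library of the same genotype, and both calls held under every alternative run. The culture difference in *Cdkn2b* differed by 0.05 between the genotypes on the log2 scale (95% interval −0.90 to 1.0).

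*Cdkn2c* and *Cdkn2d* were also higher in 2i, from lower levels. *Cdkn2c* was at 1.68 and 0.930 in WT serum and 3.16 and 2.84 for WT in 2i medium (log2 fold change 1.2, limma, BH-adjusted p = 0.0545), and at 0.749 and 1.98 in P53-/- serum and 4.75 and 7.6 in P53-/- 2i (2.20, limma, BH-adjusted p = 0.00404). The WT call was lost without either WT 2i library or without WT serum library 2, while that in P53-/- held. *Cdkn2d* was at 0.324 and 0.494 in WT serum and 0.849 and 1.46 for WT in 2i medium (log2 fold change 1.28, limma, BH-adjusted p = 0.0265), and at 0.350 and 0.465 in P53-/- serum and 1.40 and 1.40 in P53-/- 2i (1.57, limma, BH-adjusted p = 0.0106). The WT call for *Cdkn2d* was lost with quantile normalization and without WT 2i library 2 or WT serum library 1. An estimated 4.9 to 19.2 fragments lay behind a *Cdkn2d* value.

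*Cdkn2a*, which cannot be split here into p16INK4A and ARF transcripts, was the highest *Cdkn2* gene in each library. It was at 16.7 and 18.7 in WT serum against 19.9 and 20.4 in 2i, a log2 fold change of 0.18 (95% interval −0.64 to 1.01, limma, BH-adjusted p = 0.676). In P53-/- it was at 21.6 and 8.66 in serum and 29.7 and 25.6 in 2i, a log2 fold change of 1.0 (limma, BH-adjusted p = 0.0388). The P53-/- serum libraries differed 2.50-fold, against at most 1.16-fold within any other group. Without library 2 of P53-/- serum the log2 fold change was 0.35 and was not called, and without library 1 it was 1.66. The call was also lost without P53-/- 2i library 1 and in a fit of the P53-/- libraries alone. *Trp53* was lower in library 2 than in library 1 of P53-/- serum, by 4.56-fold, and of P53-/- 2i, by 3.86-fold, against at most 1.26-fold between WT libraries. In P53-/- serum library 2, *Cdkn2b* was also lower, by 1.81-fold, and *Cdkn2c* was 2.64-fold higher. In GRCm38, *Cdkn2a* and *Cdkn2b* are neighbours on the minus strand of chromosome 4, 11645 bases apart with no annotated gene between them, and the ratio of *Cdkn2b* to *Cdkn2a* FPKM was 0.0917 ± 0.0128 (SD, n = 2) in WT serum, 0.0414 ± 0.0094 in P53-/- serum, 0.389 ± 0.075 in WT 2i and 0.110 ± 0.002 in P53-/- 2i.

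The summed FPKM of *Cdkn2b*, *Cdkn2c* and *Cdkn2d*, which encode only INK4 proteins, was 2.97 to 3.69 in WT serum, 1.85 to 2.86 in P53-/- serum, 11.1 to 12.8 in WT 2i and 9.46 to 11.8 in P53-/- 2i. With *Cdkn2a*, the ratio of the *Cdkn2* sum to the D-type cyclin sum was 0.162 ± 0.014 (SD, n = 2) in WT serum, 0.15 ± 0.091 in P53-/- serum, 0.364 ± 0.044 in WT 2i and 0.525 ± 0.005 in P53-/- 2i. The libraries of 2i all lay above those of serum. The ratio of the D-type cyclin sum to the kinase sum went the other way, from between 0.529 and 0.667 in serum to between 0.242 and 0.302 in 2i.

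**Figure D3:**
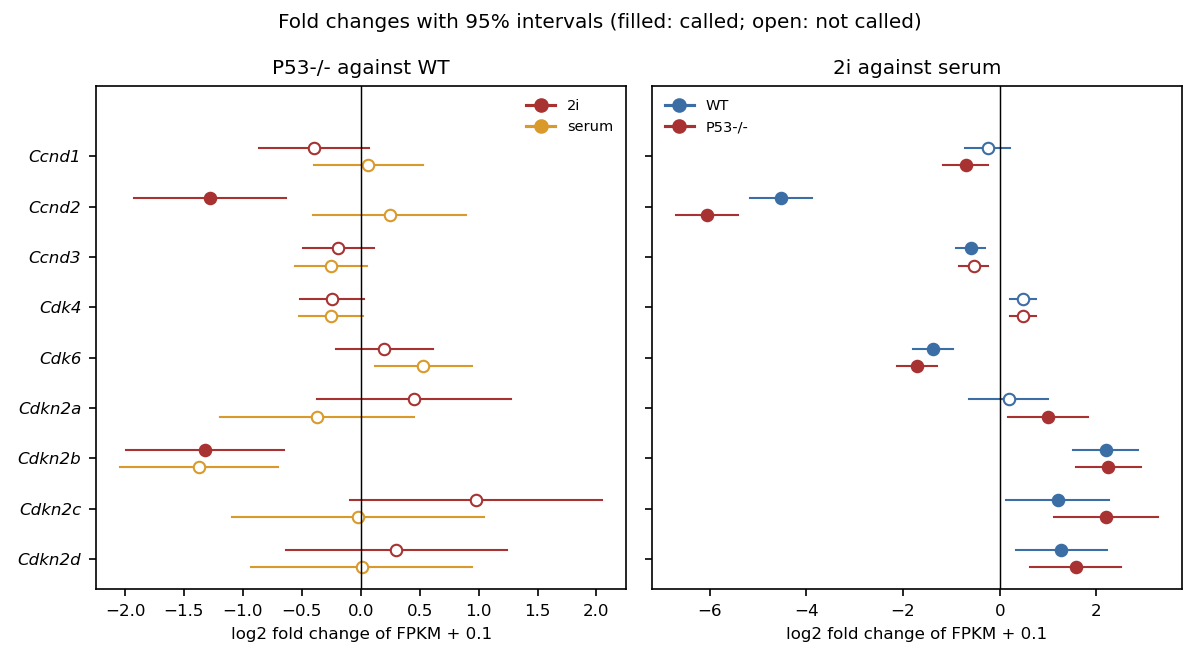
Log2 fold change of FPKM + 0.1 with its 95% interval from limma for P53-/- against WT (left) and for 2i against serum (right), filled where called and open where not, with a scale of its own in each panel. *Ccnd2* and *Cdkn2b* are the filled points at left, both in 2i, and at right *Ccnd2* lies at −4.53 and −6.05, while the *Cdkn2* genes lie at or above 0.18.

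The comparison of P53-/- with WT asks which of these genes depend on P53 in each culture. In 2i, 2 of the 9 genes were lower in P53-/-, *Ccnd2* and *Cdkn2b*, none was higher, and 7 were not called, beside 5.97% of all genes lower and 4.36% higher. *Ccnd2* passed the filter only through serum, so its call lends this count no support, which leaves 1 gene, *Cdkn2b*. The median log2 fold change of the members was −0.19, beside 0.02 over all genes. At an unadjusted p under 0.05 the same number of members passed, 2, against 25.2% of all genes.

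The 2i level of *Cdkn2b* was 3.31 and 2.79 without P53 against 8.79 and 6.85 with it, so that both P53-/- libraries were below both WT libraries. The fold was 2.50, a log2 fold change of −1.32 (SE 0.29, limma, BH-adjusted p = 0.0387). A fit of the 2i libraries alone gave an adjusted p of 0.122 from limma, and the call was lost when P53-/- 2i library 1, P53-/- 2i library 2 or WT 2i library 1 was left out, with a log2 fold change between −1.50 and −1.15 over all libraries left out in turn. *Ccnd2* in P53-/- 2i was at 0.0348 and 0.0929 against WT values of 0.294 and 0.290, a log2 fold change of −1.28 (limma, BH-adjusted p = 0.0381). With a pseudocount of 1 it was −0.28 and was not called, and the call was also lost in a fit of the 2i libraries alone and without P53-/- 2i library 1. Its P53-/- values rest on the 2.1 and 3.2 fragments given above, and all 4 of its 2i values lie under the filter of 0.5 FPKM, which it passed through its serum libraries.

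The other members had no call in 2i. *Cdkn2c* was higher in both P53-/- libraries, at 4.75 and 7.6 against 3.16 and 2.84, with a log2 fold change of 0.98 and an interval from −0.09 to 2.05 (limma, BH-adjusted p = 0.234). *Cdkn2a* was at 29.7 and 25.6 against 19.9 and 20.4 (log2 fold change 0.45, 95% interval −0.37 to 1.28). For *Ccnd1*, *Ccnd3* and *Cdk4* the log2 fold changes were −0.40, −0.19 and −0.24, with the P53-/- libraries below the WT libraries in each case, and for *Cdk6* it was 0.20 with the P53-/- libraries above. *Cdkn2d* overlapped between the groups. The intervals of *Ccnd3* (−0.49 to 0.12) and *Cdk4* (−0.51 to 0.02) lie within the fold threshold of 1.5 in both directions, and those of the other 5 genes without a call reach past it.

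In serum none of the 9 genes was called by limma, beside 0.135% of all genes higher and 0.883% lower, and 2 members had an unadjusted p under 0.05, beside 11.3% of all genes. The first was *Cdkn2b*, at 0.752 and 0.416 in P53-/- serum against 1.69 and 1.55 in WT serum, with a log2 fold change of −1.37 (SE 0.29, unadjusted p = 0.00157, limma, BH-adjusted p = 0.121). The fold was 2.59, and adding 1 FPKM in place of 0.1 gave −0.73 in serum and −1.12 in 2i on the log2 scale. It was called in serum when small RNA genes were left out of the fit (limma, BH-adjusted p = 0.0949) or when P53-/- serum library 1 was left out. The other was *Cdk6*, at 8.41 and 6.92 against 5.26 and 5.24 (log2 fold change 0.53, unadjusted p = 0.0179, limma, BH-adjusted p = 0.318). *Cdk4* and *Ccnd3* were lower in both P53-/- libraries than in WT, each with a log2 fold change of −0.25. *Ccnd1*, *Cdkn2a*, *Cdkn2c* and *Cdkn2d* overlapped between the groups. Without P53-/- serum library 1 *Cdkn2a* had a log2 fold change of −1.02 and was called (limma, BH-adjusted p = 0.0676), and without library 2 it had one of 0.29.

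A test of the interaction asks whether the effect of P53 differs between the cultures. None of the 9 genes was called by limma, beside 0.103% of all genes in each direction. The only member with an unadjusted p under 0.05 was *Ccnd2*, with a difference of −1.53 on the log2 scale (95% interval −2.44 to −0.61, unadjusted p = 0.005, limma, BH-adjusted p = 0.199), beside 13.1% of all genes. Its 2i values all lie under the filter of 0.5 FPKM, and the difference was −0.51 with a pseudocount of 1 and −2.40 with 0.01. For *Cdkn2b* the difference was 0.05. *Cdkn2a* (0.82) and *Cdkn2c* (1.01) had the largest positive differences, with intervals from −0.34 to 1.99 and from −0.51 to 2.52. *Cdkn2a* passed the threshold without P53-/- serum library 1 (limma, BH-adjusted p = 0.0816). For *Cdk4* the difference was 0.01 with an interval from −0.37 to 0.39. With 2 libraries a group, an exact permutation test of a single gene cannot go below a two-sided p of 0.33, so the tests rest on the spread estimated across genes by limma.

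Downstream of the cyclin D kinases, a list of 21 genes of the RB-E2F axis (pocket proteins, E2F factors, their DP partners, cyclins E and A, CDK2, the phosphatase CDC25A and CIP/KIP inhibitors) had 12 genes lower and none higher in WT 2i than in WT serum, with a median log2 fold change of −1.18, beside 28.6% of all genes lower and 27.2% higher and a median of −0.02. The largest were *E2f8*, *E2f7* and *E2f2*, at −3.42, −2.62 and −2.44, of which *E2f7* and *E2f8* encode repressor E2Fs. *Rb1*, which encodes the main substrate, was also lower, by −1.0. In P53-/- 9 were lower and 2 higher, with a median of −0.41, beside 30.1% and 28.0% of all genes and a median of −0.03, and the higher ones were *E2f5* (0.64) and *Rbl1* (0.65), which encode a repressor-type E2F and the pocket protein p107. Between P53-/- and WT in 2i, 5 were higher and 2 lower, beside 4.36% and 5.97% of all genes, and the median was 0.09. The higher ones were *Cdc25a* (1.03), *Ccna2* (1.03), *Ccne2* (0.83), *E2f5* (0.81) and *Cdkn1b* (0.60), and the lower ones were *Cdkn1a* (−2.24) and the pocket protein gene *Rbl2* (−1.03). In serum *Cdkn1a* alone was called, at −2.18, beside 0.883% of all genes lower. *Rb1* was not called between P53-/- and WT in either culture. Its log2 fold changes were −1.29 in 2i (BH-adjusted limma p of 0.102) and −1.88 in serum (0.13). *Rbl2* was not called in serum (−1.09, 0.15). The limma intervals held only negative values, from −2.24 to −0.33 and −2.84 to −0.93 for *Rb1*, and −1.67 to −0.51 for *Rbl2*. The paper reports lower *Rb1* and *Rbl2* without P53 in both cultures, and the direction was the same here. The deleted gene *Trp53* was not called in serum either, so a missing call does not show an unchanged level. *Ccna2*, the gene of cyclin A2, was called in the interaction (1.16, limma, BH-adjusted p = 0.0435).

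The list for assembly, activation and turnover of cyclin D complexes, 16 genes, had 4 lower and 2 higher in WT 2i, with a median of 0.05, beside 28.6% and 27.2% of all genes. The chaperone genes *Hsp90ab1* (−1.71) and *Cdc37* (−1.04), whose products fold CDK4 for cyclin binding, and *Ccnh* (−0.95), a subunit of the CDK-activating kinase, were the largest falls. In P53-/- 3 were higher and 2 lower, among them *Fbxw8* (1.03), a ubiquitin ligase subunit for cyclin D1, *Hsp90ab1* (−1.50) and *Ccnh* (−0.90), with a median of −0.16, and both counts are below the shares of all genes, 28.0% and 30.1%. None of the 16 was called by limma between P53-/- and WT in either culture. Of all genes, 4.36% were higher and 5.97% lower in 2i, and 0.135% and 0.883% in serum, so few calls would be found among 16 genes at large. The ligase subunits *Fbxw8* and *Fbxo31* were higher in 2i in both genotypes, with *Fbxo31* at 0.72 in each.

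Of 15 ERK-responsive genes tested, 10 were lower and 1 higher in WT 2i, with a median of −1.39, beside 28.6% and 27.2% of all genes. In P53-/- 2i 9 were lower and 1 higher, with a median of −2.22, beside 30.1% and 28.0% of all genes. *Spry4* was at 60.6 to 76.8 FPKM in serum and 0.173 to 0.399 in 2i, and *Myc* at 21.2 to 26.9 in serum and 0.161 to 0.895 in 2i. Both passed the filter through serum, and their log2 fold changes (−7.31 and −7.75 for *Spry4*, −5.58 in each genotype for *Myc*) follow the pseudocount and their calls lend the counts no support. *Fos* was higher (3.63 and 2.26). Between P53-/- and WT in 2i, *Egr1* (−3.17), *Fos* (−2.33) and *Spry2* (−1.08) were lower and *Spry1* (0.66) was higher, beside 5.97% of all genes lower and 4.36% higher. *Egr1* was at 0.335 and 0.298 FPKM in P53-/- 2i, where its fold change depends on the pseudocount, and its WT 2i libraries were far apart, at 6.84 and 1.92. Of 11 WNT-responsive genes tested, 7 were higher and 2 lower in WT 2i, among them *Sp5* (4.80), *T* (3.02) and *Apcdd1* (2.48), and 5 were higher and 2 lower in P53-/- 2i, with medians of 1.08 and 1.07 and the same shares of all genes beside them. *Sp5* (0.208 to 0.471 FPKM) and *T* (0 to 0.285 FPKM) were under 0.5 in every serum library and passed the filter only through 2i, so their fold changes follow the pseudocount and their calls lend these counts no support. *Tcf7* and *Znrf3* were the lower ones in both. Of these, *Notum* (−1.14) was called between P53-/- and WT in 2i, beside the same 5.97% of all genes lower.

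The list of 20 Polycomb and other repressors of the *Ink4* locus had 10 genes lower and 3 higher in WT 2i, with a median of −0.63, beside 28.6% and 27.2% of all genes, and 10 lower and 5 higher in P53-/- 2i, with a median of −0.64, beside 30.1% and 28.0%. *Ezh2*, *Eed* and *Suz12*, the core of PRC2, were lower in both genotypes, at −1.93, −1.22 and −1.19 in WT and −1.51, −1.55 and −1.18 in P53-/-. *Jarid2* (−2.13 and −3.00), a PRC2 cofactor, *Rnf2* (−1.07 and −1.08), the PRC1 ligase, and *Id1* (−3.65 and −3.22) were lower as well. The PRC1 reader gene *Cbx8* (2.71 and 2.68) was higher. So was *Tbx2* (3.85 and 2.53), whose mean FPKM was under 1. Its level in serum was low, so its fold changes follow the pseudocount and its calls lend these counts no support. Between P53-/- and WT in 2i, *Bmi1*, which encodes a PRC1 subunit, was higher (0.89) and *Tbx3* was lower (−0.66), a count of 1 in each direction beside 4.36% and 5.97% of all genes, which is near the share of genes at large. In serum none of the 20 was called, beside 0.135% and 0.883%. The ARF-P53 list of 6 genes had 4 lower in P53-/- 2i (*Trp53*, *Cdkn1a*, *Mdm4* and *Mdm2*), and 3 lower in P53-/- serum (*Cdkn1a*, *Mdm2* and *Mdm4*), beside 5.97% and 0.883% of all genes. *Trp53* is the deleted gene and *Cdkn1a* served above as a check of the genotype, so their calls lend these counts no support. In 2i against serum the list had 3 lower and none higher in each genotype, beside 28.6% of all genes lower in WT and 30.1% in P53-/-. These were the ARF partner *Npm1* (−0.91 in WT and −1.14 in P53-/-), *Mdm4* (−0.86 and −1.50) and *Mdm2* (−0.62 and −0.73).

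**Figure D4:**
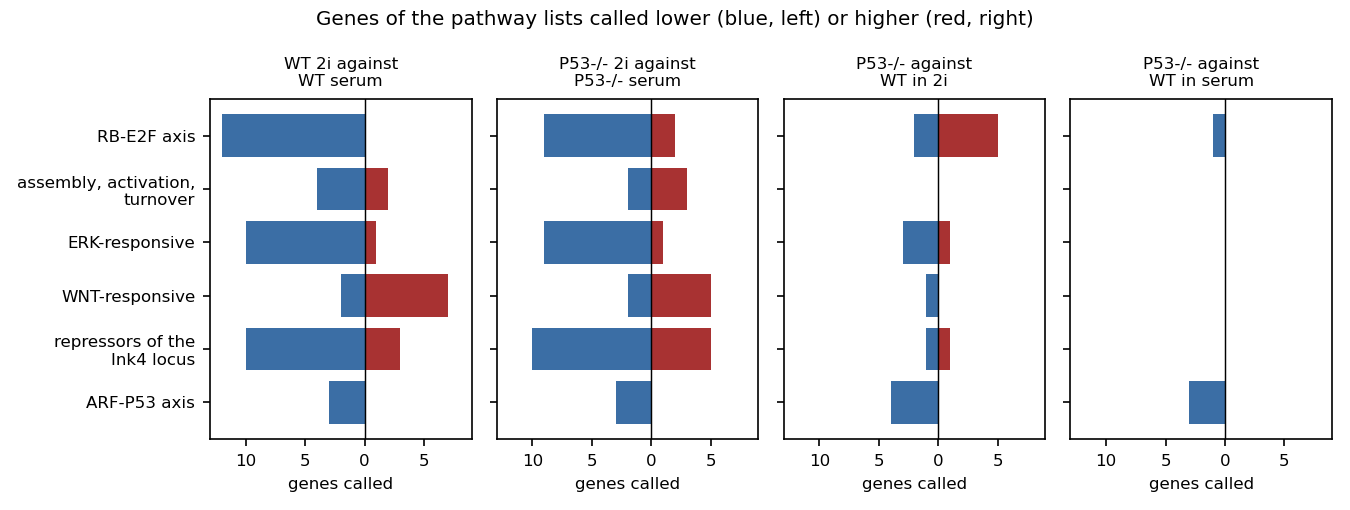
Number of genes called lower (left, blue) and higher (right, red) in each of the 6 lists, for both culture comparisons and both P53 comparisons. The RB-E2F, ERK-responsive and *Ink4* repressor lists have 9 to 12 genes lower in 2i, and in serum only the RB-E2F and ARF-P53 lists have a gene called between P53-/- and WT, *Cdkn1a* being in both.

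Across the 8 libraries, which form 4 groups and share the culture difference, the Pearson correlation of log2 levels of *Cdk4* and *Cdkn2b* was 0.99, that of *Cdk4* and *Cdk6* −0.948 and that of *Ccnd2* and *Cdk6* 0.936. Of the *Cdkn2* genes, *Cdkn2a* was least like *Cdkn2c*, with a correlation of 0.374. The genes most like *Ccnd2* were *Cttnbp2nl*, *Chd9* and *Zfp423*, with correlations of 0.998 to 0.999, and 2441 genes had one over 0.9. Those most like *Cdk6* were *Trmt10c*, *Zmym1* and *Tnks* (0.993 to 0.996, with 2386 genes over 0.9), and those most like *Cdkn2d* were *Eri3*, *Siah2* and *Map10* (0.988 to 0.992). *Dcxr* was among the 3 genes most like *Cdk4*, with *Grid1* and *Tusc2* (0.992 each), and most like *Cdkn2b*, with *Sdc4* and *Pnpla3* (0.994 to 0.996). For *Ccnd3* they were *Stk16*, *Polr3c* and *Ppif* (0.98 to 0.981), for *Ccnd1* *Ppp5c*, *Acot7* and *Zscan18* (0.975 to 0.983), and for *Cdkn2c* *Chst7*, *Apom* and *Zfp772* (0.978 to 0.98). *Cdkn2a* had the fewest such genes, 26, with *Slc25a38*, *Copb2* and *Cox5a* at 0.944 to 0.962. These are descriptions over 8 libraries, and the culture difference alone gives many genes a like pattern.

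The spread between libraries differed among the members. The pooled SD of log2 values within groups was 0.044 for *Cdk4*, 0.111 for *Cdk6*, 0.119 for *Ccnd3*, 0.213 for *Ccnd2*, 0.241 for *Ccnd1*, 0.299 for *Cdkn2b*, 0.327 for *Cdkn2d*, 0.474 for *Cdkn2a* and 0.587 for *Cdkn2c*, beside a median over all genes tested of 0.106 to 0.178 in single groups. *Cdkn2b*, *Cdkn2c* and *Cdkn2d* rested on an estimated 4.9 to 113 fragments a library, *Cdk4* on 3036 to 6383. *Cdkn2a* had 72.3 fragments in P53-/- serum library 2, the lowest of its libraries, and 95.2 to 256 in the others.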

How the data were processed

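RNA-seq was analysed for G1-sorted WT and P53-/- ESCs in serum and 2i, 8 libraries. The authors deposited FPKM values by gene symbol, and no counts. The labels name STAR, Cufflinks and DESeq2 (no versions) and mm9, and the roles of the tools, the annotation and any use of strand in counting are not given in the sources used here. The libraries of P21-/- ESCs and the WT 2i libraries paired with them were not analysed here.

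Columns were grouped by genotype and culture. Log2(FPKM + 0.1) of the 12572 genes whose mean FPKM reached 0.5 was fitted with limma 3.58.1 in R 4.3.3, with 4 groups in 1 fit, eBayes with trend and Benjamini-Hochberg adjustment. Calls needed an adjusted p below 0.1 together with a fold above 1.5, as in the study. Fold changes are on this log2 scale and understate changes of low genes. Contrasts were P53-/- against WT in each culture, their difference, and 2i against serum in each genotype. On simulated data of the same layout, the simulated P53 contrast in 2i recovered 179 of 200 genes given a log2 change of 2, with 19 false calls there among 11827 genes tested.

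Depth was estimated from the most frequent step between low FPKM values of genes with 1 GENCODE M21 transcript, and fragments behind a value from the length of the longest coding transcript. Such numbers carry no interval. Small RNA genes took 85.2% to 97.0% of a library's FPKM sum. A check of 12 housekeeping genes found none at 0. Symbols matched GENCODE M21 (GRCm38) in 98.2% of cases. Promoters came from RefSeq (GRCm38.p6).

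The genes named are the 9 members, *Trp53* and *Cdkn1a*, up to 3 called genes with the largest change and a mean FPKM of 1 or more for each pathway list, and the 3 genes most correlated with each member. Other called genes of the lists were named after their values were seen. The members and lists were chosen with earlier results of these data known. Each library was left out in turn, and the fit was repeated with quantile normalization, with median-ratio scaling, with pseudocounts of 0.01 and 1, with genes from a mean FPKM of 1 or with any value above 0, without small RNA genes, without the eBayes trend, on the compared groups only, and with 0.05 as the limit of the adjusted p. The depth estimate, sequences and figures were made with pandas 2.3.3, numpy 2.4.6 and matplotlib 3.10.9 in Python 3.11.15. Results for some list genes are not reported here.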

Additional observations from a re-analysis of the deposited data

Results flagged for a closer look

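*Ccnd2* was flagged because its P53-/- libraries lay on opposite sides of WT in the 2 cultures. Every member but *Cdkn2d* had P53-/- and WT libraries apart in 2i, so that separation does not set *Ccnd2* apart. The share of all genes with such a pattern is not given here. The 2i values of *Ccnd2* all lie under the filter of 0.5 FPKM, which it passed only through serum. Both P53-/- 2i libraries were below both WT 2i libraries. Both P53-/- serum libraries were above both WT serum libraries, though the difference in serum, 0.24 on the log2 scale, was not called (BH-adjusted limma p of 0.784). The difference between the cultures was −1.53 on the log2 scale (limma adjusted p = 0.199), and so did not pass the threshold. It was −0.51 with a pseudocount of 1 and −2.40 with 0.01, and the P53-/- 2i values rest on an estimated 2.1 and 3.2 fragments.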

How the results depend on the processing

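No paired analysis was possible because the columns of the table carry no replicate numbers. The number of members called between P53-/- and WT in 2i was 2, and it was 1 with a pseudocount of 1, 0 in a fit of the compared groups only (where 193 genes in all were called instead of 1299) and 0 to 2 with a library left out. In serum it was 0, and 1 without small RNA genes and 0 to 2 with a library left out, with 37 genes in all instead of 128 in the fit of the compared groups only. For the interaction it was 0, and 0 to 1 with a library left out. Over all genes, the calls with a library left out ran from 495 to 1259 in 2i, from 63 to 168 in serum and from 22 to 74 (26 with all libraries) for the interaction, which had 66 with a pseudocount of 1, 40 without the trend, 43 without small RNA genes and 16 at an adjusted p under 0.05. That limit gave 771 in 2i and 73 in serum. The members called for 2i against serum were 6 in WT (4 to 6 with a library left out) and 7 in P53-/- (5 to 8). Median-ratio scaling lost *Ccnd3* in WT, which left 3 members higher and 2 lower. A limit of 0.05 for the adjusted p lost *Cdkn2c* in WT. The other settings that changed a call are given with the gene. Signs reversed only for members without a call. In serum, *Cdkn2c* (−0.03 on the log2 scale) was at 0.0060 with a pseudocount of 1 and 0.020 with quantile normalization, and *Cdkn2d* (0.01) at −2.8e-05 with a pseudocount of 1 and −0.0038 with median-ratio scaling. In the interaction, *Cdkn2b* (0.05) was at −0.38 with a pseudocount of 1 and −0.10 with quantile normalization, which also took *Ccnd3* (0.06) to −0.0073 and *Cdk4* (0.01) to −0.10. With a library left out, values ran from −0.055 to 0.66 for *Cdkn2d* in 2i. In serum they ran from −0.16 to 0.29 for *Ccnd1*, −1.02 to 0.29 for *Cdkn2a*, −0.67 to 0.62 for *Cdkn2c* and −0.24 to 0.25 for *Cdkn2d*. In the interaction they ran from −0.062 to 0.19 for *Ccnd3*, −0.052 to 0.066 for *Cdk4*, −0.31 to 0.41 for *Cdkn2b* and −0.062 to 0.65 for *Cdkn2d*. The cause of these shifts was not tested. A library left out leaves a group with 1 library, which was assumed to vary like the others. With a library left out, the *Ccnd2* share of the D-type cyclins in P53-/- 2i was 0.0463% or 0.131% instead of 0.0889%.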
